A study of Caenorhabditis elegans with 4 samples.

Results

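Chromosome IV of Caenorhabditis elegans carried 59 of the peaks in the authors' combined HPL-2 list of this ChIP-seq series, against 270 on the other nuclear chromosomes. HPL-2 is a homologue of the heterochromatin protein HP1. The peaks described here are all those listed on chromosome IV in the 3 deposited peak lists. These lists hold 5191 of the 30000 peaks of ChIP replicate 1, 4055 of the 22864 peaks of ChIP replicate 2 and the 59 peaks of the authors' combined list, or 9305 of 53193 rows in all. Position alone chose them, and no score or rank entered the choice.

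HP1 proteins bind histone H3 methylated at lysine 9 and help to form heterochromatin. On worm autosomes this methylation is concentrated in the chromosome arms. Chromosome IV is also where most piRNA genes of the worm lie, each a short gene with its own upstream motif, in a pair of broad clusters. The piRNAs guide silencing of foreign and repetitive sequence in the germline, and HPL-2 is among the factors needed to keep piRNA-triggered silencing over generations. The cluster on the left is taken here as 4.5 to 7 Mb and that on the right as 13.5 to 17.2 Mb, and both are called the piRNA intervals.

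The ChIP and the input libraries all came from young adult hermaphrodites of strain YL472, grown at 20 °C on E. coli HB101 and fixed in formaldehyde at 2%. The strain has the unc-119(ed3) mutation on chromosome III and the extrachromosomal transgene vrEx66, introduced by bombardment, and was not outcrossed. This transgene fuses HPL-2 to GFP and FLAG, is driven in the germline by mex-5 promoter sequence, and carries unc-119(+) as a marker. Untagged HPL-2 made by the worm's own gene is not seen by the GFP antibody. There are 2 ChIP samples, precipitated with a goat antibody against GFP, and 2 input samples, each kept from 10% of the supernatant. The labels do not say whether the replicates are separate cultures. No input values and no ChIP without the tag were analysed here, so background that both ChIP libraries share was not measured. The mex-5 gene lies on chromosome IV (RefSeq, assembly WBcel235), whose coordinates do not apply to the deposited peaks. Which peaks, if any, lie at the native mex-5 locus, where reads from the transgene would add, was not tested.

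Peak positions are in build WS220, per the file headers, and no genome or annotation of that build was used, so neither the bases nor the genes under a peak are given. The number in a peak's name is its rank, and rank 1 is the best of a list over all chromosomes. All combined peaks have a single score, and many peaks of each ChIP list share its highest score, among them 84 chromosome IV peaks of replicate 1 and 355 of replicate 2. Below, the best peaks of a ChIP list are its best-ranked nuclear peaks in the same number as the combined list holds. This left 55 on chromosome IV in replicate 1 and 63 in replicate 2. Peaks of one list have a common width, which was 490 bp for all 5191 peaks of replicate 1, 420 bp for all 4055 of replicate 2 and 636 bp for 58 of the 59 combined peaks. The remaining combined peak was 179 bp wide. The lists covered 13.4%, 9.29% and 0.208% of chromosome IV for replicate 1, replicate 2 and the combined list. The read depth is unknown.

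The best-ranked site on chromosome IV lay just right of the left piRNA interval. Combined peak 3 spanned IV:7083320-7083498 and shared its site with the overlapping combined peak 121 at IV:7083317-7083952. Both met the peak ranked 62 in replicate 1 and the peak ranked 19 in replicate 2, the best chromosome IV peak of that replicate, and the midpoints of these ChIP peaks were 26 bp apart. The site is thus among the 100 best of both ChIP lists. About 40 kb to its left stood combined peak 29, at IV:7043352-7043987, with ranks 41 and 95 in replicates 1 and 2.

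The best site of the left arm was combined peak 12 at IV:1710891-1711526, ranked 167 in replicate 1 and 36 in replicate 2. Combined peak 34 at IV:3296622-3297257 overlapped combined peak 247 at IV:3296821-3297456, and both met the peaks ranked 36 and 59. These were the only other peaks to rank among the 100 best in both ChIP lists, which makes 5 of the 59 combined peaks at 3 sites. The corresponding count on the other chromosomes is not given here. Within the left piRNA interval the best was combined peak 40 at IV:4749722-4750357. It met the best chromosome IV peak of replicate 1, ranked 23, whereas its replicate 2 partner ranked 617.

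Of the other combined peaks among the 10 best on chromosome IV, peak 43 lay in the centre at IV:7961708-7962343 and ranked 114 in replicate 1 and 49 in replicate 2. The left arm held a further 3 of them, peak 47 at IV:426931-427566 (ranks 116 and 328), peak 51 at IV:654607-655242 (ranks 35 and 161) and peak 57 at IV:1658945-1659580 (ranks 63 and 232). The best site of the right arm was combined peak 58 at IV:12086270-12086905, with ranks 100 and 799. In the right piRNA interval the best was combined peak 68 at IV:16482639-16483274, with ranks 56 and 397. No combined peak of the right arm was among the 100 best of both ChIP lists.

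The ranks of the 59 combined peaks differed widely between the ChIP lists. Of these peaks, 57 (96.6%) had a partner in both lists, where 98.2% of all combined peaks did. The median rank of the partners was 254 in replicate 1, from 23 to 15093, and 263 in replicate 2, from 19 to 15521. A partner ranked better in replicate 1 for 30 peaks and in replicate 2 for 27. For 17 peaks the ranks were within 3-fold of each other, and for 14 they were more than 10-fold apart. Spearman's rho between the ranks was 0.08 over the 57 peaks, which share their libraries and were selected by the authors in a way the sources do not state, so it is given as a description only.

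Combined peak 131 at IV:2387781-2388416 stood farthest apart in one direction, with rank 75 in replicate 2 and 15093 in replicate 1. In the other direction this was combined peak 308 at IV:2408277-2408912, about 20 kb away, with rank 118 in replicate 1 and 15521 in replicate 2. The 2 combined peaks with no partner in replicate 2 were peak 307 at IV:419488-420123, ranked 210 in replicate 1, and peak 324 at IV:1459339-1459974, ranked 371. Both lie in the left arm. The midpoints of the partners in the ChIP lists lay a median of 90 bp apart and within 100 bp for 31 of the 57 peaks, against a median of 93 bp and 139 of 266 peaks on the other chromosomes. These distances are bounded by the overlap with the same combined peak that defined the partners.

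**Figure D1:**
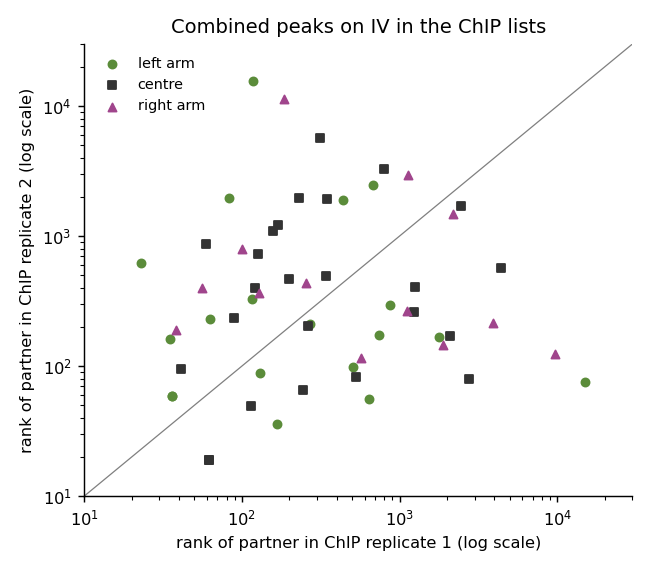
Rank of the replicate 2 partner against rank of the replicate 1 partner, both on log axes, for the 57 combined peaks on chromosome IV with a partner in both ChIP lists, with a symbol for the left arm, centre and right arm and a line of equal rank. The points scatter widely on both sides of the line, 30 with the better rank in replicate 1 and 27 in replicate 2, and pairs of overlapping combined peaks share a point.

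Both ChIP ranks were within the best 1000 for 32 of the 59 combined peaks on chromosome IV (54.2%), against 145 of 270 elsewhere (53.7%, p = 1, Fisher's exact test, two-sided). In the better-ranked part of the combined list chromosome IV had 25 of its 59 peaks (42.4%), against 139 of 270 on the other chromosomes (51.5%), a difference that did not pass the test (p = 0.25, Fisher's exact test, two-sided). By these measures the combined peaks of chromosome IV did not differ detectably from the others.

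In density, chromosome IV stood close to the mean of the other nuclear chromosomes. It held 3.37 combined peaks per Mb (95% Poisson interval 2.57 to 4.35), against 3.26 on the others together (2.89 to 3.68). The full list of replicate 1 gave 297 peaks per Mb on chromosome IV and 299 on the others, and that of replicate 2 gave 232 and 227. Chromosome IV makes up 17.4% of the nuclear length, and its share of peaks varied little with rank. Among the 100 best-ranked peaks it held 13 of 80 nuclear peaks in replicate 1 (16.2%, 95% exact interval 8.95 to 26.2%) and 16 of 78 in replicate 2 (20.5%, 12.2 to 31.2%). In the deeper rank classes the share lay between 15.8 and 18.1% in replicate 1 and between 17.06 and 18.9% in replicate 2.

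The chromosome was then cut into 3 equal lengths of 5.83 Mb, called left arm, centre and right arm, with each peak placed by its midpoint. The centre was the fullest in the combined list and the right arm the emptiest. The left arm held 21 of the 59 combined peaks, the centre 25 and the right arm 13, which corresponds to 3.60 (95% Poisson interval 2.23 to 5.51), 4.29 (2.77 to 6.33) and 2.23 (1.19 to 3.81) peaks per Mb. The intervals overlap. The same order of centre, left arm and right arm was seen in the best peaks of replicate 1 (24, 18 and 13 peaks) and of replicate 2 (31, 18 and 14 peaks), though the combined list and the ChIP lists come from the same libraries. The order was not the same in every list. In the full list of replicate 1 the left arm was the fullest, with 1854 peaks against 1718 in the centre and 1619 in the right arm. The better-ranked part of the combined list had 12 peaks in the left arm, 8 in the centre and 5 in the right arm.

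Of the combined peaks, 57.6% lay in the arms (95% exact interval 44.1 to 70.4%), where the arms are 2 of 3 equal parts, and this share did not differ detectably from the share of length (adjusted p = 0.194, exact binomial test, two-sided, over 7 lists). Arm peaks were scarcer than length predicts among the peaks at the highest score of replicate 2, with 197 of 355 (55.5%, 50.2 to 60.7%, adjusted p = 9.36e-05, exact binomial test). In replicate 1 the corresponding count was 47 of 84 (56.0%, 44.7 to 66.8%), which did not pass (adjusted p = 0.0846, exact binomial tests). In the full lists the arm share was 66.9% in replicate 1 (adjusted p = 0.724) and 64.3% in replicate 2 (adjusted p = 0.00643, exact binomial tests). In each replicate the arm share was lower at the highest score than over the full list, and of these departures from length only those of replicate 2 passed. The difference between score classes and that between replicates were not tested.

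The arm share on chromosome IV did not stand apart from that of the other autosomes. It was 57.6% for the combined peaks of chromosome IV against 59.3% (146 of 246) on I, II, III and V, and 55.5% against 58.7% for the peaks at the highest score of replicate 2. None of the 7 lists gave a difference (lowest adjusted p = 0.709, Fisher's exact test, two-sided).

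The right arm was the sparsest of the 3 in each of the 7 lists examined. These lists are not independent, as they are the combined list, the 2 full ChIP lists and parts of these, all from the same libraries. At the highest score its density was 0.714 times the mean of chromosome IV in replicate 1 (20 of 84 peaks) and 0.710 times in replicate 2 (84 of 355 peaks). In the full lists it was 0.936 times in replicate 1 and 0.931 times in replicate 2. The left arm exceeded the right arm by 1.62-fold in the combined list (95% exact interval 0.772 to 3.51, adjusted p = 0.402) and by 1.07-fold in the full list of replicate 2 (0.992 to 1.16, adjusted p = 0.182), neither of which passed. In the full list of replicate 1 the excess was 1.15-fold (1.07 to 1.22) and passed (adjusted p = 0.000499, exact binomial tests, two-sided, over 7 lists). These tests take each peak as a unit, and their p-values do not measure the spread between worm populations.

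**Figure D2:**
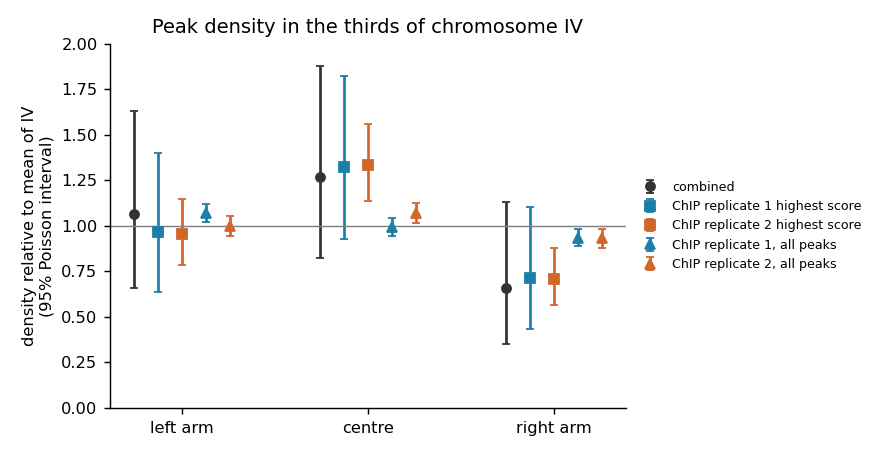
Density of peaks in the left arm, centre and right arm of chromosome IV, relative to the mean of the chromosome in the same list, with 95% Poisson intervals; the line marks the mean. The right arm is below the mean in the combined list, at the highest score and in the full lists, while the centre is highest in the combined list and at the highest score.

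At a resolution of 1 Mb, the combined peaks were most frequent between 7 and 8 Mb, directly beyond the end of the left piRNA interval. This window held 9 of the 59 combined peaks, followed by 6 in the first Mb of the chromosome, while the windows from 12 to 13 Mb and from 13 to 14 Mb held 1 each. The window from 7 to 8 Mb was also the fullest for the best peaks of replicate 1 (8 of 55) and of replicate 2 (11 of 63). In the full list of replicate 1 it held 338 peaks, where the full windows ranged from 236 to 364. In that of replicate 2 it held 266, the highest count of windows that ranged from 181 to 266, with 262 in the next. Among the peaks at the highest score of replicate 2, the window from 11 to 12 Mb held more (47 of 355) than that from 7 to 8 Mb (37). Across the 17 full windows the counts of the full lists had a Spearman's rho of 0.54 and those of the best peaks 0.26, given as descriptions since the windows lie on 1 chromosome and share base composition and mappability.

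**Figure D3:**
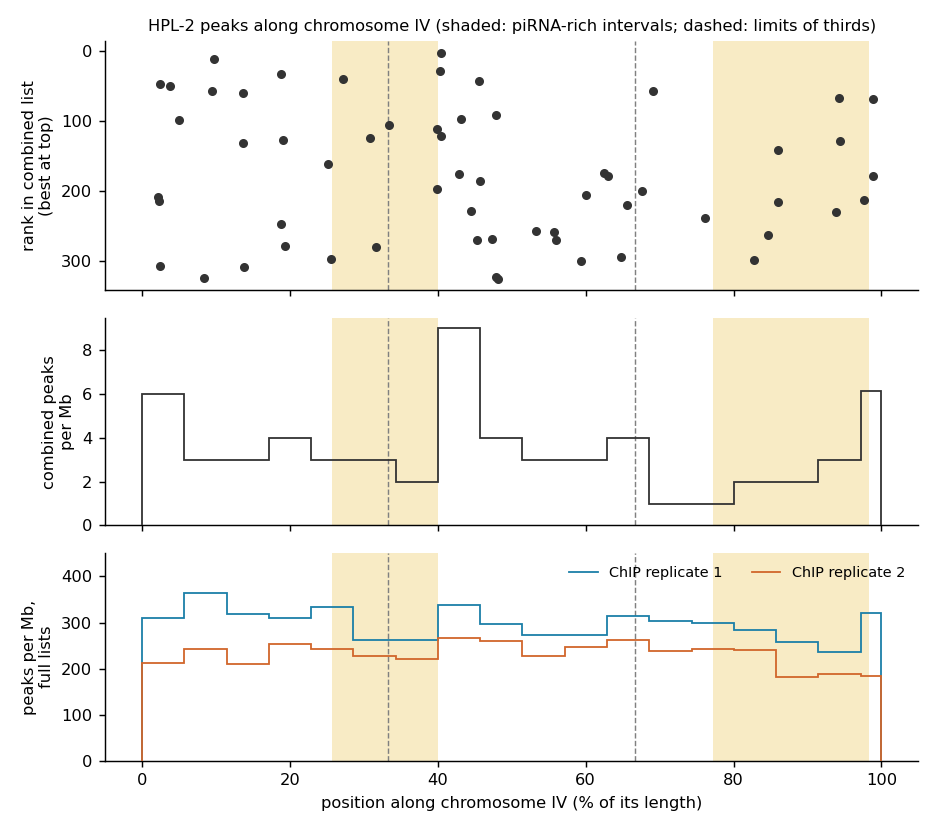
Combined peaks by rank, combined peaks per Mb and peaks per Mb of the full ChIP lists along chromosome IV, with position as a percentage of its length; the piRNA intervals are shaded and dashed lines mark the limits of the arms. The tallest step of the combined list, 9 peaks per Mb, follows directly on the left interval, and the full lists are flatter.

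HPL-2 peaks were less dense in the piRNA intervals than in the rest of chromosome IV in both full ChIP lists. These full-list comparisons were added after the data were seen, and the comparison of combined peaks below did not pass. Of the full-list peaks on chromosome IV, 29.7% in replicate 1 and 36.6% in replicate 2 had a partner in the other list. The full list of replicate 1 had 1659 peaks in both intervals (268 per Mb) and 3532 in the rest (313 per Mb), a ratio of 0.855 (95% exact interval 0.806 to 0.907, adjusted p = 3.89e-07). The full list of replicate 2 had 1326 (214 per Mb) and 2729 (242 per Mb), a ratio of 0.885 (0.828 to 0.945, adjusted p = 0.000627, exact binomial tests, two-sided, over 5 interval comparisons of each list). Each peak was taken as a unit here and in the interval comparisons below, although neighbouring calls are not independent. The p-values and 95% intervals therefore cover the counting of peaks only and may overstate the certainty. The piRNA intervals make up 35.4% of the chromosome and held 31.96% of these peaks in replicate 1 and 32.7% in replicate 2. With overlapping peaks of each list merged into 1 region, the ratios were 0.879 in replicate 1 and 0.892 in replicate 2. The windows from 15 to 16 Mb and from 16 to 17 Mb, both in the right interval, were the sparsest full windows of each list, with 258 and 236 peaks in replicate 1 and 181 and 188 in replicate 2.

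Among combined peaks the count in the intervals was 14, of which 6 lay in the left and 8 in the right, against 45 in the rest of the chromosome. This gave 2.26 peaks per Mb inside and 3.99 outside, a ratio of 0.567 (95% exact interval 0.287 to 1.05) that did not pass the test (p = 0.0758, adjusted p = 0.283, exact binomial test). The best peaks of replicate 2 gave a ratio of 0.428 (0.208 to 0.815, adjusted p = 0.0138) from 12 peaks inside and 51 outside, and those of replicate 1 a ratio of 0.622 (0.313 to 1.16, adjusted p = 0.408, exact binomial tests) from 14 and 41. The lower density among the best peaks therefore passed in replicate 2 and not in replicate 1, and the difference between the replicates was not tested.

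Both intervals were then taken singly. In replicate 1 the right interval was at 0.829 (0.771 to 0.890) times the rest of chromosome IV (adjusted p = 3.89e-07), and the left one at 0.895 (0.824 to 0.971, adjusted p = 0.00712, exact binomial tests). In replicate 2 the right interval was at 0.850 (0.783 to 0.921, adjusted p = 0.000308), and the left at 0.937 (0.854 to 1.03), which did not pass (adjusted p = 0.161, exact binomial tests). A test of the right against the left interval was not made. Set against the remaining right arm alone, the right interval was at 0.837 in replicate 1 (0.757 to 0.925, adjusted p = 0.000745) and 0.877 in replicate 2 (0.782 to 0.984, adjusted p = 0.0403, exact binomial tests). In the combined list that ratio was 0.921 (0.266 to 3.58) from 8 and 5 peaks, too few to show a difference of this size. For peaks of good rank the ratios within the right arm lay on opposite sides of 1 in the replicates. In replicate 1 the ratio was above 1, at 1.30 (0.362 to 5.76) from 9 and 4 best peaks and at 1.34 (0.485 to 4.27) from 14 and 6 peaks at the highest score (adjusted p = 0.779 and 0.647, exact binomial tests). In replicate 2 it was 0.320 (0.0842 to 1.06) from 5 and 9 best peaks (adjusted p = 0.0801) and 0.604 (0.384 to 0.95) from 43 and 41 peaks at the highest score (adjusted p = 0.0385, exact binomial tests). The difference between the replicates was not tested.

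At the highest score of replicate 2 the right interval was sparse and the left was not. The right interval held 43 of the 355 such peaks, at 0.515 times the density of the rest (0.363 to 0.713, adjusted p = 0.000103), and the left interval held 57, at 1.01 times (0.744 to 1.35, adjusted p = 0.941, exact binomial tests). In replicate 1 these ratios were 0.712 (0.367 to 1.29) from 14 peaks and 0.753 (0.344 to 1.48) from 10 peaks, and neither passed (adjusted p = 0.483 and 0.647, exact binomial tests). By rank, the ratio of both intervals to the rest in replicate 1 was 0.331 over the 100 best ranks of the list, 0.665 up to rank 1000, 0.740 up to 5000, 0.846 up to 10000, 0.885 up to 20000 and 0.903 up to 30000, each class starting where the one before ended. The same classes of replicate 2 gave 0.260, 0.804, 0.878, 0.866, 0.870 and 1.04. The first class rests on 2 peaks inside and 11 outside in replicate 1, and on 2 and 14 in replicate 2.

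**Figure D4:**
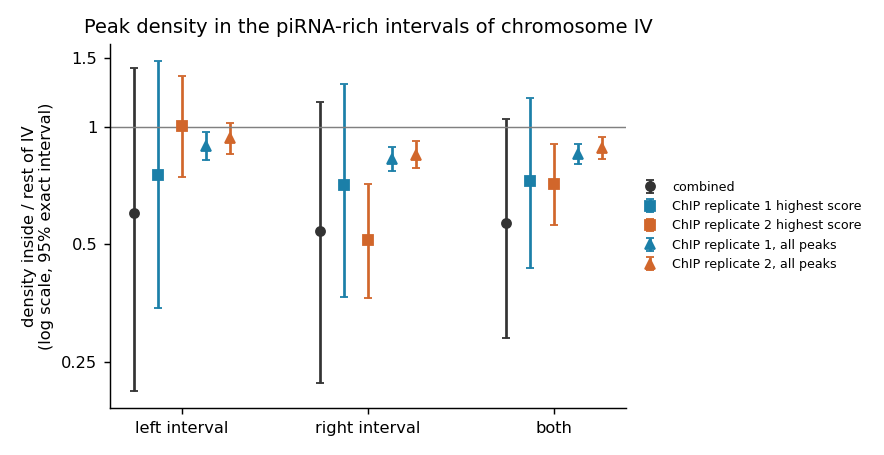
Ratio of peak density inside the piRNA intervals to that in the rest of chromosome IV, on a log axis with 95% exact intervals, for the combined list, the peaks at the highest score and the full lists. All points but the left interval at the highest score of replicate 2 (1.01) lie below 1, and the lowest is the right interval at the highest score of replicate 2 (0.515).

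Peaks called in both ChIP lists were counted by an overlap of at least 1 bp. On chromosome IV 1542 of 5191 replicate 1 peaks (29.7%, 95% exact interval 28.5 to 31.0%) had a partner in replicate 2, where 29.4% of the whole list did. In the other direction 1484 of 4055 replicate 2 peaks (36.6%, 35.1 to 38.1%) had one, where 36.6% of the whole list did. A replicate 1 peak would meet a replicate 2 peak at 18.9% of the positions on chromosome IV, and a replicate 2 peak would meet a replicate 1 peak at 23.3%. Against the other nuclear chromosomes the difference was 0.44 percentage points for replicate 1 (adjusted p = 0.839) and 0.02 for replicate 2 (adjusted p = 0.986, Fisher's exact tests, two-sided, over 8 comparisons), so sharing on chromosome IV was not distinguishable from that elsewhere.

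Sharing depended on rank. All 13 chromosome IV peaks among the 100 best of replicate 1 had a partner in replicate 2 (100%, 95% exact interval 75.3 to 100%). The share was 64.1% of 142 peaks up to rank 1000, 43.9% of 699 up to 5000, 29.8% of 905 up to 10000, 26.4% of 1743 up to 20000 and 23.7% of 1689 up to 30000. Replicate 2 gave 15 of 16 (93.8%) among the 100 best, 73.8% of 160, 44.6% of 756, 37.6% of 853 and 30.9% of 1775 over the same classes, and 29.1% of the 495 peaks beyond rank 20000. The 1000 best ranks exceeded all others by 38.5 percentage points in replicate 1 (67.1% against 28.6%, adjusted p = 9.04e-22) and by 40.7 in replicate 2 (75.6% against 34.8%, adjusted p = 6.95e-26, Fisher's exact tests, two-sided). The lists come from a procedure that ranks peaks by reproducibility between replicates. Whether the ranks within a ChIP list reflect such agreement is not stated. If they do, more sharing at better ranks is built in, and these tests cannot separate it.

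**Figure D5:**
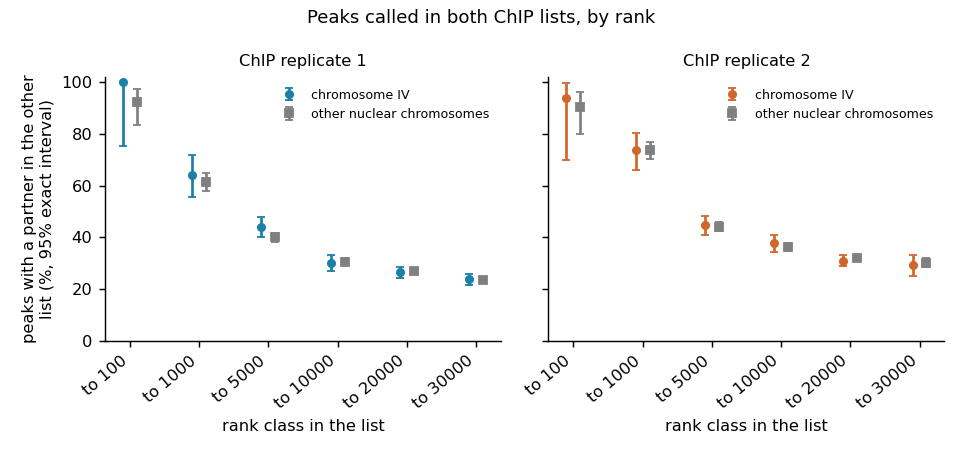
Share of peaks with a partner in the other ChIP list by rank class, with 95% exact intervals, for chromosome IV and for the other nuclear chromosomes. The share declines with rank in both lists, for chromosome IV to 23.7% and 29.1% in the last class of replicates 1 and 2, and the intervals of chromosome IV and of the other chromosomes overlap in every class.

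The midpoints of shared peaks also lay closer together at the best ranks by median, which was not tested. The 100 best ranks hold only 13 shared peaks in replicate 1 and 15 in replicate 2. These distances are bounded by the overlap that defines a partner. For chromosome IV peaks among the 100 best of replicate 1, the midpoint of the partner lay a median of 88 bp away, and the distance was 145 bp up to rank 1000 and 191 to 212 bp in the deeper classes. In replicate 2 the median was 63 bp, then 178.5 bp, and 200 to 212 bp in the deeper classes. On the other chromosomes the corresponding distance for the 100 best ranks was 92 bp in replicate 1 and 123 bp in replicate 2.

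Sites that ranked high in both lists were counted next. Of the chromosome IV peaks among the 1000 best of replicate 1, 44 of 155 (28.4%) had a partner among the 1000 best of replicate 2, against 178 of 823 (21.6%) on the other chromosomes. In the other direction it was 45 of 176 (25.6%) on chromosome IV, against 184 of 799 (23.0%), and neither difference was tested. Of the 44 peaks, 15 lay in the left arm, 19 in the centre and 10 in the right arm, and 9 in the piRNA intervals. Of all 155, 47 lay in the left arm, 64 in the centre and 44 in the right arm, and 40 in the piRNA intervals. These shares were not compared by a test. In all, 31 of the 44 met a combined peak and 13 did not. The best-placed pair outside the combined list had rank 396 in replicate 1, at IV:17279594-17280083, and rank 118 in replicate 2, at IV:17280055-17280474. It lay between combined peaks 69 and 179 at the right end of the chromosome, and its midpoints were 426 bp apart. Of the best peaks on chromosome IV, 33 of 55 in replicate 1 and 32 of 63 in replicate 2 met a combined peak, and 7 and 8 had no partner in the other ChIP list. For these counts and for the 31 of 44, no counts on the other chromosomes are given here. None is therefore read as particular to chromosome IV. The best-ranked chromosome IV peaks of replicate 2 that met no combined peak were those at IV:7800317-7800736 (rank 70) and IV:10177735-10178154 (rank 81), whose replicate 1 partners ranked 5015 and 6727.

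After adjustment, the share of peaks with a partner did not differ detectably between parts of the chromosome. For replicate 1 it was 27.8% in the piRNA intervals against 30.6% in the rest of chromosome IV, and for replicate 2 it was 34.0% against 37.9% (adjusted p = 0.105 for both, Fisher's exact tests). In the arms and the centre it ran from 28.2% (right arm) to 32.1% (centre) in replicate 1 and from 34.6% (right arm) to 38.4% (left arm) in replicate 2 (arms against centre, adjusted p = 0.105 and 0.973, Fisher's exact tests, two-sided, over 12 comparisons). Before adjustment, p was 0.047 and 0.0181 for the piRNA intervals in replicates 1 and 2 (Fisher's exact tests). For arms against centre it was 0.00895 and 0.973 (Fisher's exact tests). The 12 comparisons overlap, since they include all peaks of a list and the same peaks split at rank 1000.

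Combined peaks on chromosome IV stood mostly alone. Neighbouring midpoints were a median of 151 kb apart, with a middle range of 37.5 to 391 kb. The widest gap was 1373 kb, from 15.04 to 16.4 Mb, and lay inside the right piRNA interval. The best peaks of replicate 2 also had their widest gap there, 1461 kb between 15.04 and 16.5 Mb. In the best peaks of replicate 1 it was 1559 kb, between 13.2 and 14.8 Mb. Of the 59 combined peaks, 14 (23.7%, 95% exact interval 13.6 to 36.6%) had another within 5 kb. This share ran from 8.33% on X to 38.8% on V across the other chromosomes. It counts overlapping calls of a site as neighbours. With overlapping combined peaks merged it was 17.5% on chromosome IV, and ran from 3.1% on I to 28.3% on V across the others.

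When combined peaks less than 5 kb apart were joined, chromosome IV had 52 regions, 45 with 1 peak and 7 with 2, and none with more. The longest spanned IV:17278250-17281686, or 3437 bp, and held peaks 69 and 179, ranked 38 and 569 in replicate 1 and 189 and 116 in replicate 2. Next came IV:15039246-15042584 with peaks 141 and 215 in the right piRNA interval, whose ranks were 144 and 213 in replicate 2 but 1882 and 3925 in replicate 1. The pairs at IV:2387781-2390856 and IV:8375161-8378042 likewise ranked better in replicate 2. Of the first pair, peak 131 had rank 75 in replicate 2 and 15093 in replicate 1, and peak 60 had ranks 56 and 641. Of the other, peak 92 had rank 260 in replicate 2 and 1243 in replicate 1, and peak 322 had ranks 80 and 2757. In the left piRNA interval, peaks 112 and 197 at IV:6974024-6975824 ranked 245 and 169 in replicate 1 and 65 and 1218 in replicate 2. The remaining joined pairs were the overlapping calls at combined peaks 3 and 34.

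Spacing in the ChIP lists differed with the list. The best peaks had a neighbour within 5 kb in 7.27% of cases in replicate 1 (4 of 55) and in 33.3% in replicate 2 (21 of 63). In the full lists the median distance was 2.0 kb in replicate 1 and 2.5 kb in replicate 2. A neighbour within 5 kb was found for 94.2% of the peaks of replicate 1, at 3.37 kb of chromosome per peak, and for 89.9% of those of replicate 2, at 4.31 kb per peak.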

How the data were processed

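The deposited files are peak lists from SPP followed by IDR, a ranking of peaks by reproducibility between replicates, on WormBase WS220, per the file headers. Not given in the sources used here: aligner, versions, thresholds, use of the inputs, and how replicates were combined. The authors' deposited score has no named scale, and it and the number in each peak's name were used only for order within a list. The list of replicate 1 holds exactly 30000 peaks, and no source says whether its length was limited. ChIP lists named as replicates 2 and 3 were taken as replicates 1 and 2 by the sample under which each is held. The length of a chromosome was its highest peak end in the 3 lists (17490815 bp for IV). Shares have exact Clopper-Pearson intervals and densities exact Poisson intervals, which cover the counting of peaks only. Counts were compared by exact binomial tests against length and by Fisher's exact tests, two-sided, with Benjamini-Hochberg adjustment over the comparisons stated. Peaks are the units of these tests, and neighbouring calls are not independent. The sites named are the 10 best-ranked combined peaks of chromosome IV, the best of each arm, the centre, interval and ChIP list, those without a partner, those among the 100 best of both lists, those with the most unequal ranks and the longest joined regions. Other named sites, such as the remaining joined pairs and the pair outside the combined list, were chosen after their values were seen. Members, limits and comparisons were chosen with earlier results of these data known. Steps were tested on simulated lists. Tools were scipy 1.17.1, pandas 2.3.3, numpy 2.4.6 and matplotlib 3.10.9 under Python 3.11.15.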

Additional observations from a re-analysis of the deposited data

How the results depend on the processing

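No paired analysis was possible because the input libraries have no values here and peak lists give no value per sample to pair. The share of combined peaks in the arms was 0.864 times the length share and became 1.02 in the better-ranked part of the list (25 peaks); with the best peaks of 1 replicate it was 0.762 to 0.845, and it passed the exact binomial test with replicate 2 alone. Chromosome IV minus the other autosomes in arm share, -1.72 percentage points, turned to 4.59 in the better-ranked part and 4.30 with the outer 25% of length at each end as arms, and no alternative passed. The interval ratio of 0.567 was below 1 in all 13 alternatives, which overlap and draw on the same 2 ChIP libraries. Ratios above 1 occurred outside these alternatives. Examples are the right interval within the right arm in replicate 1 (1.30 for the best peaks, 1.34 at the highest score) and the left interval at the highest score of replicate 2 (1.01). With the best peaks of 1 replicate the ratio of both intervals was 0.428 to 0.622, passing with replicate 2 alone. Among 6 alternatives added after seeing the data it passed with all peaks (0.855 in replicate 1, 0.885 in replicate 2), with these merged (0.879 in replicate 1, 0.892 in replicate 2) and at the highest score of replicate 2 (0.714). Widened by 250 kb, the intervals also held combined peaks 3, 29 and 121, among others, and the ratio was 0.850. The share of replicate 1 peaks with a partner, 29.7%, was 17.2% with a reciprocal overlap of 50% and 10.2% with midpoints within 100 bp. It was 36.6% in the other direction and 81.0% at the highest score. The excess of the 1000 best ranks passed in all 4 alternatives run, under the same limit that rank may itself reflect agreement between replicates. Neighbours within 5 kb, 23.7%, were 6.78% within 1 kb and 7.27 to 33.3% with 1 replicate. The density of 3.37 per Mb was 1.43 in the better-ranked part, which holds fewer peaks by construction. The other alternatives kept direction and side of the threshold; read depth was not analysed.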
